A study of Homo sapiens with 33 samples.

Results

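Transcript levels were compared between THP-1 cells that had received tumor necrosis factor (TNF-alpha) alone and THP-1 cells that had received vehicle. THP-1 is a human monocytic leukaemia line that is widely used as a model of monocytes. The TNF group comprised 5 of the 33 arrays of the series and the vehicle group 6, chosen by their titles, and every gene with a usable signal was included. TNF wells were given TNF-alpha at 5 ng/ml for 24 h, and vehicle wells 0.1% ethanol. All were harvested at 40 h, each array came from a separate culture well, and whether TNF wells also held ethanol is not stated in the labels. Vehicle replicates 4, 5 and 6 are titled as 0 hr controls, while their treatment notes give a harvest at 40 h. They are the 3 vehicle arrays of array set 2, described below. Wells treated with all-trans retinoic acid (RA, 20 nM, 40 h) with TNF for the last 24 h (n = 5), and wells with RA alone for 40 h (n = 5), served to show the same TNF step in other cells of the experiment. All wells came from a single leukaemia line, so differences between donors were not sampled.

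TNF is a cytokine made mainly by macrophages. It binds 2 receptors, TNFRSF1A and TNFRSF1B, whose adaptors and kinases free the transcription factor NF-kB from its inhibitors and activate MAP kinases. NF-kB induces cytokines, chemokines, adhesion molecules and survival factors, and also its own inhibitors. In macrophages TNF is further known to induce a low level of interferon beta, which acts through STAT and IRF factors on antiviral genes.

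The promoters of 6 of the genes with the largest rises are shown because they hold matches to the binding motifs of these factors. Each line gives the 250 bases before the RefSeq gene start (GRCh38.p14), 5′ to 3′ on the gene's strand, with the matches in capitals. The capitals mark the NF-kB consensus and the interferon-stimulated response element (ISRE), here GAAA, any 2 bases and GAAA again, read on either strand.
CXCL10, chr4:76023498-76023747, minus strand: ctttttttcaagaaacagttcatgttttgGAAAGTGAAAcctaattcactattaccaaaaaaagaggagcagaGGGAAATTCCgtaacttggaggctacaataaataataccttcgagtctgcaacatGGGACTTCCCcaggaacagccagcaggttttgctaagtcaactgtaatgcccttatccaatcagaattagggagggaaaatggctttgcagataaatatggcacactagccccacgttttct
IL32, chr16:3065153-3065402, plus strand: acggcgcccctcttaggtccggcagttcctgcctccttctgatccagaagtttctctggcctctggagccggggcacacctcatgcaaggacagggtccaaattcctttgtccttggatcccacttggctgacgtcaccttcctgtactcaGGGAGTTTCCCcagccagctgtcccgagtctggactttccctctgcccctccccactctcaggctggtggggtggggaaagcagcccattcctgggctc
CXCL11, chr4:76036071-76036320, minus strand: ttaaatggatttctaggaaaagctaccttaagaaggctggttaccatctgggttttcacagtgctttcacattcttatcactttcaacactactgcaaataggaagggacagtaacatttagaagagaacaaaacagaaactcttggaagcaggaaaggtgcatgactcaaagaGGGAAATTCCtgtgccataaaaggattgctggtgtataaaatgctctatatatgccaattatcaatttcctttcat
IFI44, chr1:78649539-78649788, plus strand: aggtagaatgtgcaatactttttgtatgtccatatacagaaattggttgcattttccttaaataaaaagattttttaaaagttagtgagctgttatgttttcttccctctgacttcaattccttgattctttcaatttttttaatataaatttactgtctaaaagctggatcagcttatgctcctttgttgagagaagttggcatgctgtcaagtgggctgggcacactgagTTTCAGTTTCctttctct
IFI44L, chr1:78620198-78620447, plus strand: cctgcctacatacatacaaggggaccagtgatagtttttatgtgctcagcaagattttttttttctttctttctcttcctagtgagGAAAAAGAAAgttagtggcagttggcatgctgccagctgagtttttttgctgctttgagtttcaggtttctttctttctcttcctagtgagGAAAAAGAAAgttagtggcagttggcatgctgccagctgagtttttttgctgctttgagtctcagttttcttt
NFE2L3, chr7:26151948-26152197, plus strand: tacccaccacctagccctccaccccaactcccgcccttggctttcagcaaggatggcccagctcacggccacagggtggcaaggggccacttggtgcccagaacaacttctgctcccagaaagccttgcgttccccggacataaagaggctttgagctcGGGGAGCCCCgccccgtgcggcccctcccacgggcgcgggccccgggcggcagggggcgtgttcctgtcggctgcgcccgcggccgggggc
CXCL10 holds matches to both motifs, IFI44 and IFI44L to the ISRE alone, and IL32, CXCL11 and NFE2L3 to the NF-kB consensus alone. The matches in IL32 overlap each other. Over 300 bases, which add 50 after the gene start, the NF-kB consensus was found in 9.91% of 676 promoters of genes that rose, in 6.21% of 467 promoters of genes that fell and in 6.78% of 10090 promoters of genes tested. The ISRE was found in 8.88% of the promoters of genes that rose, 2.78% of those of genes that fell and 2.87% of those tested. Among 93 promoters of genes that rose at least 4-fold, 14.0% held the NF-kB consensus and 18.3% the ISRE. The other motifs searched, the STAT element GAS (TTCNNNGAA) and the AP-1 element TGANTCA, were found in 8.14% and 6.36% of the promoters of genes that rose, 6.64% and 4.93% of those of genes that fell and 6.3% and 4.91% of those tested. In the 93 promoters the shares were 17.2% and 15.1%. Over all 27305 promoters the shares were 5.78% for NF-kB, 3.65% for the ISRE, 7.94% for GAS and 7.9% for AP-1. A match describes letters in the window and does not show a bound site.

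Levels below are multiples of the median probe set of the same array, the scale on which the values were deposited and tested. Array medians corresponded to 27.1 to 40.3 signal units in TNF arrays and 27.0 to 45.2 in vehicle arrays. Array record numbers fall into 2 runs, called array set 1 (3 TNF and 3 vehicle arrays) and array set 2 (2 TNF and 3 vehicle arrays), and the set was a term in the fit. Vehicle replicate 3 stood apart with the highest median, 45.2 units, and 13 probe sets at the lowest value, against 300 to 1550 in TNF arrays. Replicate arrays correlated across genes at r = 0.903 to 0.943 in TNF and 0.897 to 0.947 in vehicle. The log2 3′ to 5′ signal ratio of ACTB ran from 0.99 to 1.81 in set 1 and from 0.27 to 1.0 in set 2. TNF arrays averaged 1.05 ± 0.513 on this ratio (SD, n = 5), close to the 1.08 ± 0.529 of vehicle arrays (SD, n = 6). None of 8 exact two-sided permutation tests of array quality and cell markers passed adjustment (adjusted p from 0.996 to 1.0, smallest possible p 0.00433). With labels permuted within each array set all 8 adjusted p-values were 0.79 (smallest possible p 0.005), and a p that misses the threshold does not show that the groups were alike. Of the monocytic markers LYZ ran from 40.1 to 78.7 in TNF and from 44.6 to 103.0 in vehicle, and TYROBP from 63.3 to 102.0 and from 76.7 to 133.0, whereas FCGR1A ran from 0.221 to 1.43 and from 0.0413 to 1.23. MPO, a granule enzyme, ran from 0.0997 to 1.86 in TNF wells and from 0.959 to 1.82 in vehicle wells, and did not pass (log2 -1.41 ± 0.67, limma adjusted p = 0.193), with -2.32 in set 1 and -0.12 in set 2. Means over both groups were also below the array medians for 8 of 11 lymphocyte, 5 of 7 erythroid and megakaryocyte and 11 of 13 epithelial, fibroblast and endothelial markers. The summed lymphocyte markers ran from 15 to 20.3 in TNF and from 10.2 to 18.2 in vehicle. NKG7, a granule protein of cytotoxic lymphocytes, rose 2.13-fold, and its part in other results was not tested.

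TNF changed 1401 of 12393 genes tested (11.3%) by limma at a Benjamini-Hochberg adjusted p under 0.05. Of these, 829 genes (6.69%) rose and 572 (4.62%) fell. Shares given below for gene groups are to be read against these. After quantile normalization 1140 rose and 1406 fell, and without centring on the array median 1139 rose and 1348 fell, so the share of falls among calls was 40.8% as deposited, 55.2% after quantile normalization and 54.2% without centring. At least 2-fold changes were 367 rises and 188 falls, at least 4-fold 121 and 39, and at least 16-fold 15 and 1. These counts include genes with low values in one group, whose folds are uncertain. Of the rises of at least 16-fold only SGK1 and NAV3 had a vehicle mean above the array median. OLFML3, the 16-fold fall, averaged 6.3 signal units with TNF. Vehicle means lay below the array median for 75 of all rises (9.05%, against 10.8% of all genes tested). TNF means lay below it for 46 of all falls (8.04%). Every TNF array lay above every vehicle array for 372 genes (3.0%) and below for 200 (1.61%). All 829 rises and all 572 falls had the same direction in both array sets, a property that the fit over both sets favours. The TNF effect differed between the sets for 1 gene (0.00807%), EGR1. The median log2 difference of genes that rose was 0.89 in set 1 and 0.92 in set 2, and that of genes that fell was -0.89 and -0.74. Over all genes tested the median was -0.011. In these bulk cultures fewer cells of a kind and less RNA per cell cannot be told apart.

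**Figure D1:**
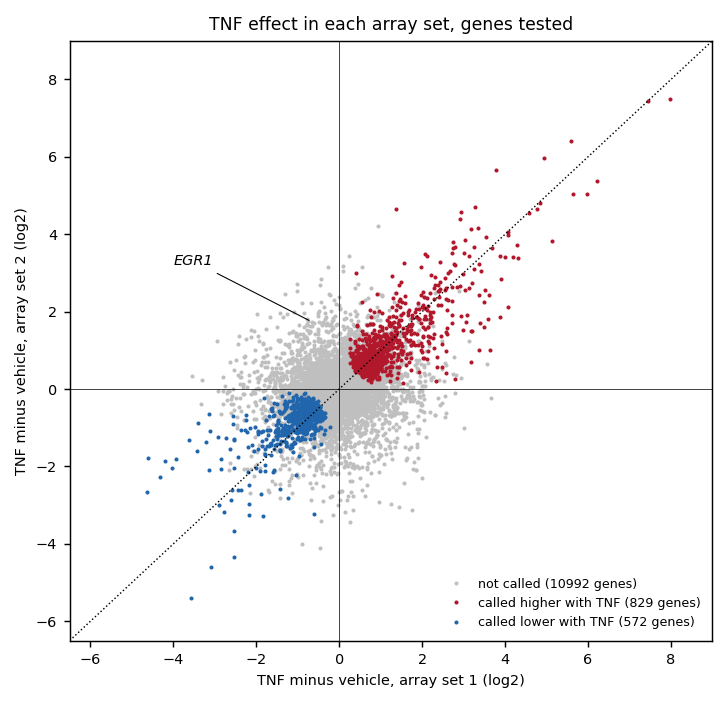
Each point is 1 of 12393 genes, with the TNF minus vehicle log2 difference in array set 1 on the horizontal axis and in set 2 on the vertical axis. The dotted line marks equal differences. The 829 genes that rose (red) lie at the upper right and the 572 that fell (blue) at the lower left, and EGR1 is the gene whose TNF effect was called different between the sets.

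IGFBP3, which binds insulin-like growth factors, had the largest rise. Its level was 143, 115, 140, 80.1 and 78.6 in the 5 TNF wells, and in vehicle wells it ran from 0.141 to 1.42 with a median of 0.522. The groups were far apart, and the vehicle mean lay below the array median, so only the log2 difference is given: 7.79 ± 0.43 (SE, limma adjusted p = 9.1e-16). None of the other 10 tested genes of the insulin-like growth factor axis passed, with a group median of -0.31, although 3 fell after quantile normalization and 3 without centring. ICAM1, an adhesion molecule for leukocyte integrins, stood at 16.5, 11.2, 14.3, 25.1 and 21.1 with TNF, against 0.189 to 2.04 with a median of 0.726 in vehicle (log2 4.84 ± 0.36, adjusted p = 2.08e-12). SGK1, a kinase that regulates ion transport and cell survival, was at 27.6, 26.6, 28.7, 31.8 and 26.7 with TNF and at 0.744 to 2.16 in vehicle, a 24.3-fold rise (4.60 ± 0.31, adjusted p = 1.89e-13). NFE2L3, a CNC-bZIP transcription factor, was lower in TNF replicate 2 (6.78) than in the other TNF wells (16.1 to 20.0) and still above every vehicle well (0.48 to 1.31).

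**Figure D2:**
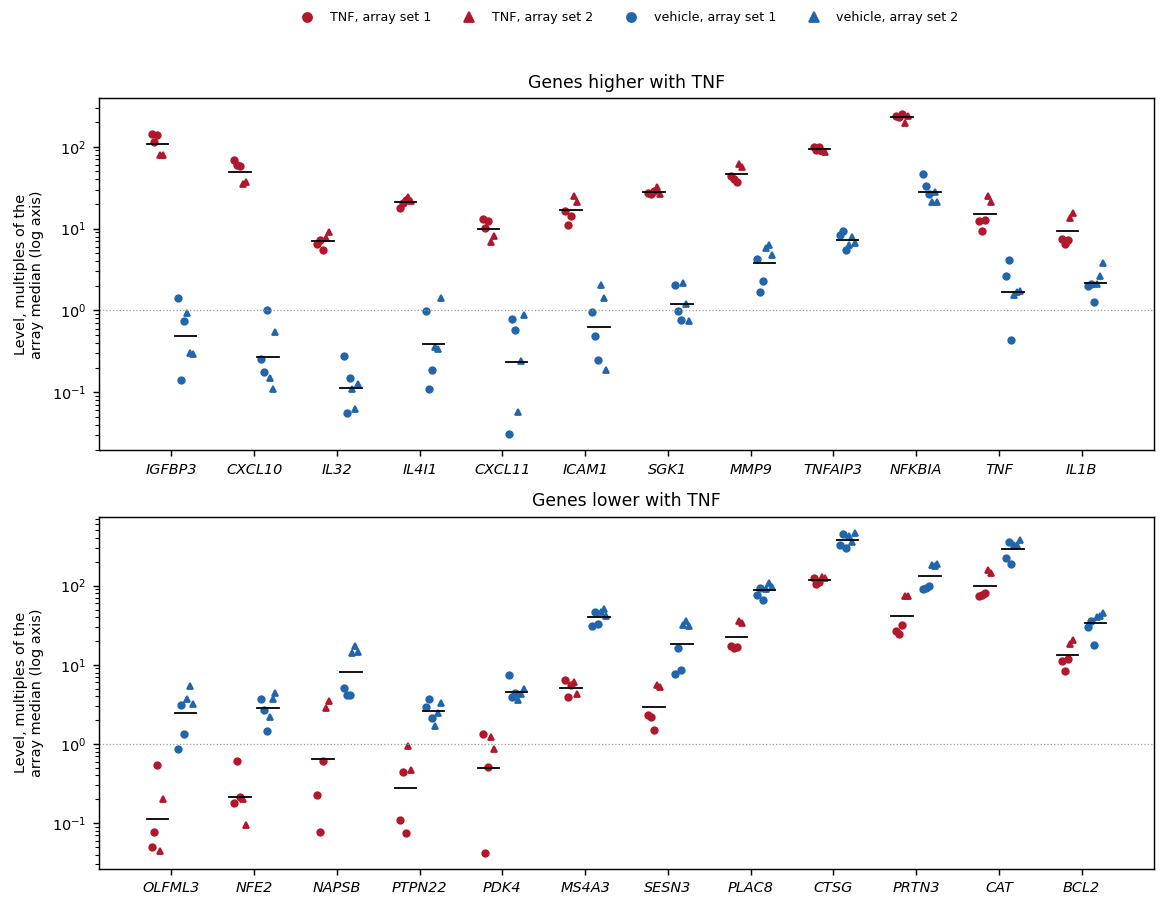
Levels of 12 genes higher with TNF (upper panel) and 12 lower (lower panel), as multiples of the array median on a log axis, with TNF (red) left of vehicle (blue). Points are arrays, circles of set 1 and triangles of set 2, and bars are means of log2 values. The groups overlap only for BCL2, where vehicle replicate 3 (17.9) lies below the 2 TNF arrays of set 2 (18.3 and 20.6).

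The 2 TNF receptors did not pass: TNFRSF1A was at 11.6 to 14.7 with TNF and 9.61 to 17.3 in vehicle (log2 -0.11 ± 0.16, adjusted p = 0.778), and TNFRSF1B at 7.39 to 16.9 and 8.03 to 13.4 (0.36 ± 0.18, adjusted p = 0.236). Of 22 receptor adaptors and kinases tested, 2 rose (9.09%, near the 6.69% of all genes) and none fell, with a group median of -0.04, and 2 fell after quantile normalization or without centring. Those that rose were the kinase IKBKE (1.34 ± 0.24) and the adaptor TRAF3 (0.79 ± 0.21). Of the NF-kB group, 7 of 10 NF-kB subunits and inhibitors rose (70.0%) and none fell, with a group median of 1.80. NFKBIA, the inhibitor that holds NF-kB in the cytoplasm, was at 237, 229, 248, 197 and 239 in TNF wells, against 20.9 to 46.7 with a median of 27.6 in vehicle. The groups did not overlap, and the rise was 7.87-fold (2.98 ± 0.17, adjusted p = 1.39e-15). The subunits NFKB2 (3.24 ± 0.42), RELB (2.5 ± 0.23) and NFKB1 (1.26 ± 0.17) and the inhibitors NFKBIE (1.81 ± 0.17) and NFKBIZ (1.99 ± 0.20) rose, whereas RELA was at 0.04 ± 0.18 (adjusted p = 0.943).

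Among 19 feedback inhibitors of signalling and RNA decay, 5 rose (26.3%, against 6.69% of all genes) and 2 fell (10.5%, against 4.62%). TNFAIP3, the ubiquitin-editing enzyme that ends NF-kB signalling, was at 99.0, 92.3, 98.0, 89.4 and 85.7 with TNF and at 5.43 to 9.36 in vehicle, with the groups well apart (12.9-fold, 3.69 ± 0.17, adjusted p = 9.2e-18). Its binding partner TNIP1 (0.98 ± 0.18), the deubiquitinase CYLD (1.01 ± 0.21) and the RNA-decay factor ZFP36L1 (2.90 ± 0.55) rose, and the related ZFP36L2 (-0.59 ± 0.15) and the cytokine-signalling inhibitor SOCS2 (-1.29 ± 0.36) fell. The ZFP36L1 difference was 1.38 in set 1 and 4.64 in set 2. Its vehicle wells were at 1.05 to 1.42 in set 1 and at 0.037 to 0.387 in set 2. Of the 2 other probe sets of ZFP36L2, 1 did not share its direction. AP-1 factors and MAP kinase phosphatases gave 7 rises (36.8%) and 1 fall (5.26%, near the 4.62% of all genes) among 19. MAFF (2.12 ± 0.33), DUSP4 (1.56 ± 0.27), DUSP10 (0.91 ± 0.19) and ATF3 (1.2 ± 0.30) were higher and FOSL2 was lower (-0.72 ± 0.19).

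Antiviral effectors were the group with the most calls. Of 52 members tested 45 rose and none fell (86.5%, against 6.69% of all genes), and the group median was 1.57. MX1, a GTPase that blocks viral replication, was at 79.2, 60.9, 64.4, 34.7 and 27.5 in TNF wells and at 2.33 to 11.8 in vehicle wells, with a median of 4.36. All TNF wells were above all vehicle wells, those of set 1 highest, and the rise was 9.66-fold (3.27 ± 0.21, adjusted p = 3.3e-14). OAS2, which makes the activator of RNase L, rose 8.05-fold (3.01 ± 0.21), OAS3 7.18-fold (2.84 ± 0.23), the antiviral factor TRIM22 7.48-fold (2.90 ± 0.24) and EPSTI1 7.31-fold (2.87 ± 0.26). ISG15, a ubiquitin-like modifier, was at 172, 144, 164, 66.2 and 82.5 with TNF and at 12.8 to 41.6 in vehicle (5.53-fold, adjusted p = 6.88e-10). IFI44 (4.70 ± 0.62), IFI44L (4.07 ± 0.65), IFITM1 (2.38 ± 0.24), which restricts viral entry, and CMPK2 (2.28 ± 0.25), a mitochondrial nucleotide kinase, rose as well. Among 16 JAK, STAT and IRF factors 2 rose (12.5%, against 6.69% of all genes) and none fell, while 2 fell after quantile normalization or without centring. The rises were the interferon regulatory factor IRF7 (2.08 ± 0.22) and the related IRF9 (1.01 ± 0.17). Averaged over the 52 members, the log2 value was 4.67 to 4.92 in TNF arrays of set 1 and 4.0 to 4.03 in those of set 2, and 2.33 to 3.27 in vehicle arrays.

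**Figure D3:**
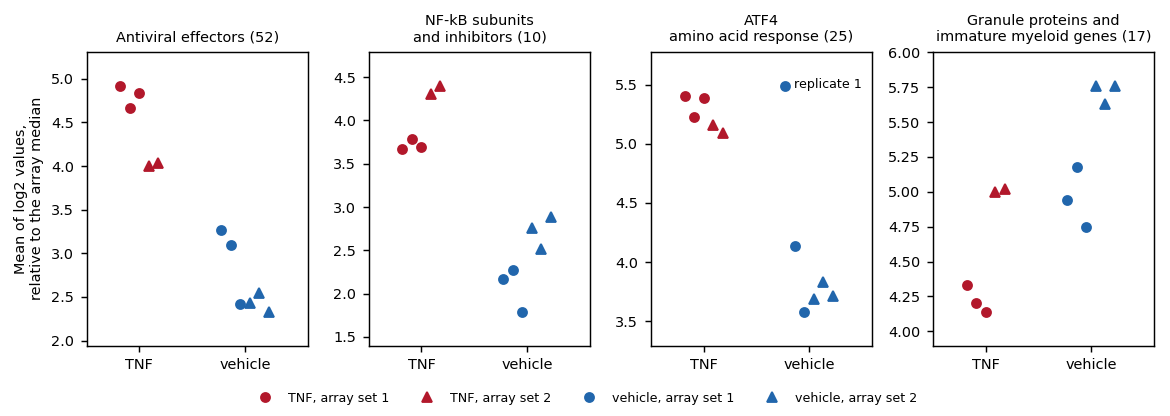
Mean log2 value of the tested members of 4 gene groups on each array, relative to the array median, with TNF (red) left of vehicle (blue), circles for array set 1 and triangles for set 2. Antiviral and NF-kB means do not overlap between the groups, granule protein means are lower with TNF within each set, and the ATF4 mean of vehicle replicate 1 (5.49) lies above all 5 TNF arrays (5.09 to 5.4).

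Chemokines and cytokines rose over a wide range of levels. CXCL10, an interferon-induced attractant of T cells, was at 68.2, 59.6, 58.0, 35.3 and 36.6 with TNF, against 0.111 to 1.02 in vehicle (log2 7.49 ± 0.51, adjusted p = 1.63e-13). CXCL11, a ligand of the same receptor, was at 13.2, 10.2, 12.4, 6.93 and 8.2 with TNF and at 0.0306 to 0.869 in vehicle (5.35 ± 0.64). Of 15 CXC chemokines with a probe set only 5 were bright enough to be tested. Of these CXCL10, CXCL11 and CXCL8, a neutrophil attractant (3.99-fold, 2.00 ± 0.33), rose. Of 13 CC chemokines with a probe set 9 were tested, and 5 rose (55.6%, against 6.69% of all genes tested) and 1 fell (11.1%, against 4.62%). The brightness limit used TNF arrays too, so genes low in vehicle could enter through their rise. Counts among tested members therefore do not give the share of the whole group that rose. CCL2, a monocyte attractant, was at 46.2, 53.3, 54.6, 42.8 and 35.9 with TNF and at 2.12 to 4.41 in vehicle, with no overlap (15.1-fold, 3.91 ± 0.36). CCL4 (4.54 ± 0.50), CCL5 (2.07 ± 0.20) and CCL8 (2.45 ± 0.55) rose, and CCL23 fell (-0.96 ± 0.20). The CCL8 difference was 3.64 in set 1 and 1.0 in set 2. TNF replicate 5 (0.454) lay within the vehicle range of CCL8 (0.175 to 1.04).

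Of 27 interleukins and growth factors with a probe set 13 were tested, under the same brightness limit. Among the 13 there were 7 rises (53.8%, against 6.69% of all genes tested) and 1 fall (7.69%, against 4.62%). IL32, a cytokine of monocytes and lymphocytes, was at 6.54, 7.21, 5.41, 7.59 and 9.04 with TNF and at 0.0563 to 0.275 in vehicle (5.91 ± 0.61). EBI3, a subunit of interleukin 27, rose by 5.4 ± 0.58, the inflammatory cytokine IL1B by 2.22 ± 0.24 and the angiogenic factor VEGFA by 2.58 ± 0.33, while IL18 fell (-0.88 ± 0.26). VEGFA was at 47.8 in vehicle replicate 1 and at 5.26 to 16.4 in the other vehicle wells, against 49.2 to 83 with TNF. Of 23 members of the TNF superfamily 7 rose (30.4%) and 1 fell (4.35%, near the 4.62% of all genes). TNF's own transcript was at 12.5, 9.29, 12.6, 25.1 and 21.2 in TNF wells and at 0.436 to 4.19 in vehicle (9.63-fold, 3.27 ± 0.46, adjusted p = 2e-06). The B cell survival factor TNFSF13B (1.62 ± 0.23), LTB (1.88 ± 0.25, with another probe set that did not share the direction), CD40 (0.84 ± 0.17) and the death receptor TNFRSF10B (1.21 ± 0.22) rose, and TNFSF9 fell (-0.99 ± 0.24).

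As deposited, receptors gave more rises than falls. Of 27 cytokine and chemokine receptors 6 rose (22.2%, against 6.69% of all genes) and 2 fell (7.41%, against 4.62%). The rises included IL6ST (0.98 ± 0.17), the shared subunit of the interleukin 6 family, and IL17RA (0.87 ± 0.15). The 2 that fell were CCR2, the receptor of CCL2, and CXCR2, a receptor of CXCL8, and falls numbered 6 after quantile normalization and 5 without centring. CCR2 was at 14.8, 13.4, 13.4, 45.1 and 37.2 with TNF and at 36.0 to 79.7 in vehicle, overlapping across the sets but not within them (2.5-fold lower, -1.32 ± 0.16, adjusted p = 1.18e-07). Toll-like and other pattern receptors gave 6 rises (26.1%) and 1 fall (4.35%, near the 4.62% of all genes) among 23. TLR8 (2.97 ± 0.61), the lipopolysaccharide receptor CD14 (2.40 ± 0.44) and the muramyl dipeptide sensor NOD2 (1.23 ± 0.26) were higher and CD180 was lower (-1.33 ± 0.39). A further fall made 2 after quantile normalization or without centring. TLR2 (0.40 ± 0.18, adjusted p = 0.155) and TLR4 (-0.69 ± 0.29, adjusted p = 0.134) did not pass.

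Of 34 monocyte and macrophage surface proteins 6 rose (17.6%, against 6.69% of all genes) and 5 fell (14.7%, against 4.62%), with 10 falls after quantile normalization and 8 without centring. SLAMF8 rose by 3.99 ± 0.41, or by 5.59 with its other probe set, and the sialic acid receptor SIGLEC1 by 1.90 ± 0.21. The Fc receptor FCGR2A (-1.37 ± 0.19), LILRA2 (-0.98 ± 0.17) and TREM2 (-0.74 ± 0.16) fell, while FCER1G, the Fc receptor signalling chain, rose (0.81 ± 0.17). Adhesion molecules gave 6 rises and 6 falls among 23 (26.1% each way). The integrin subunits ITGB2 (0.85 ± 0.17) and ITGAM (0.78 ± 0.17) were higher and the selectin ligand SELPLG was lower (-1.21 ± 0.19). The 6 falls became 2 without TNF replicate 5 and 3 without vehicle replicate 2. Antigen presentation gave 6 rises among 19 class I genes (31.6%), led by the peptide transporter TAP1 (1.46 ± 0.19), and 11 rises and 1 fall after quantile normalization. Of 17 class II genes 4 rose (23.5%) and 1 fell (5.88%, near the 4.62% of all genes). HLA-DRA was at 1.63 ± 0.26, the invariant chain CD74 at 1.18 ± 0.19 and the protease CTSS at -0.94 ± 0.16. Complement gave 4 rises (28.6%) and 1 fall (7.14%) among 14, with 2 falls without centring. The rises included the anaphylatoxin receptor C3AR1 (3.69 ± 0.42) and C3 (2.30 ± 0.45), and the fall was C5 (-1.2 ± 0.22).

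Granule proteins of immature myeloid cells fell. Of 17 members 9 fell and 1 rose (52.9% lower, against 4.62% of all genes), with a median of -0.77. MS4A3, a membrane protein of granulocyte and monocyte precursors, was at 6.52, 3.93, 5.51, 6.04 and 4.27 with TNF and at 31.2 to 51.1 in vehicle, with no overlap (7.95-fold lower, -2.99 ± 0.20, adjusted p = 1.71e-13). CTSG, the granule protease cathepsin G, was at 124, 104, 111, 127 and 124 with TNF and at 299 to 466 in vehicle (3.19-fold lower, adjusted p = 1.56e-10). PRTN3, proteinase 3, fell by 1.6 ± 0.18 and the serpin SERPINB10 by 1.95 ± 0.31. The member that rose was S100A9 (1.86 ± 0.21), a calcium-binding protein of mature phagocytes, and 2 members rose without centring. Among 34 myeloid transcription factors and genes of the leukaemia programme 5 rose and 5 fell (14.7% each way, against 6.69% and 4.62% of all genes). NFE2, a haematopoietic transcription factor, was at 0.181, 0.605, 0.213, 0.199 and 0.0944 with TNF and at 1.45 to 4.45 in vehicle (-3.70 ± 0.66, adjusted p = 9.8e-05). The differentiation inhibitor ID2 fell (-1.11 ± 0.15), and the repressor BCL6 (2.23 ± 0.25), KLF4 (0.88 ± 0.18) and KLF6 (0.82 ± 0.19) rose. The 5 falls became 10 after quantile normalization or without centring, and 3 without TNF replicate 2, 4 or 5 or vehicle replicate 1, 2 or 6.

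OLFML3, a secreted glycoprotein, had the largest fall, at 0.0495, 0.0769, 0.546, 0.0443 and 0.203 with TNF and at 0.853 to 5.43 in vehicle (-4.31 ± 0.90, adjusted p = 0.00077). All TNF wells were below the array median. NFE2, above, GPA33 (-3.78 ± 0.67), NAPSB (-3.42 ± 0.35), SIM1 (-3.41 ± 0.65), GRIP1 (-3.30 ± 0.68) and the phosphatase PTPN22 (-3.18 ± 0.50), which restrains lymphocyte signalling, followed. All 8 genes with falls of at least 8-fold had TNF means below the array median. Among genes with a mean vehicle signal of at least 500 units, MS4A3, above, had the largest fall. SESN3 (5.74-fold lower, -2.52 ± 0.24), the calcium channel subunit CACNA2D3 (5.27-fold lower), SEL1L3 (3.99-fold lower), PLAC8 (3.72-fold lower) and the caveolar protein CAV1 (3.67-fold lower) also fell. Their TNF means stayed above the array median.

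**Figure D4:**
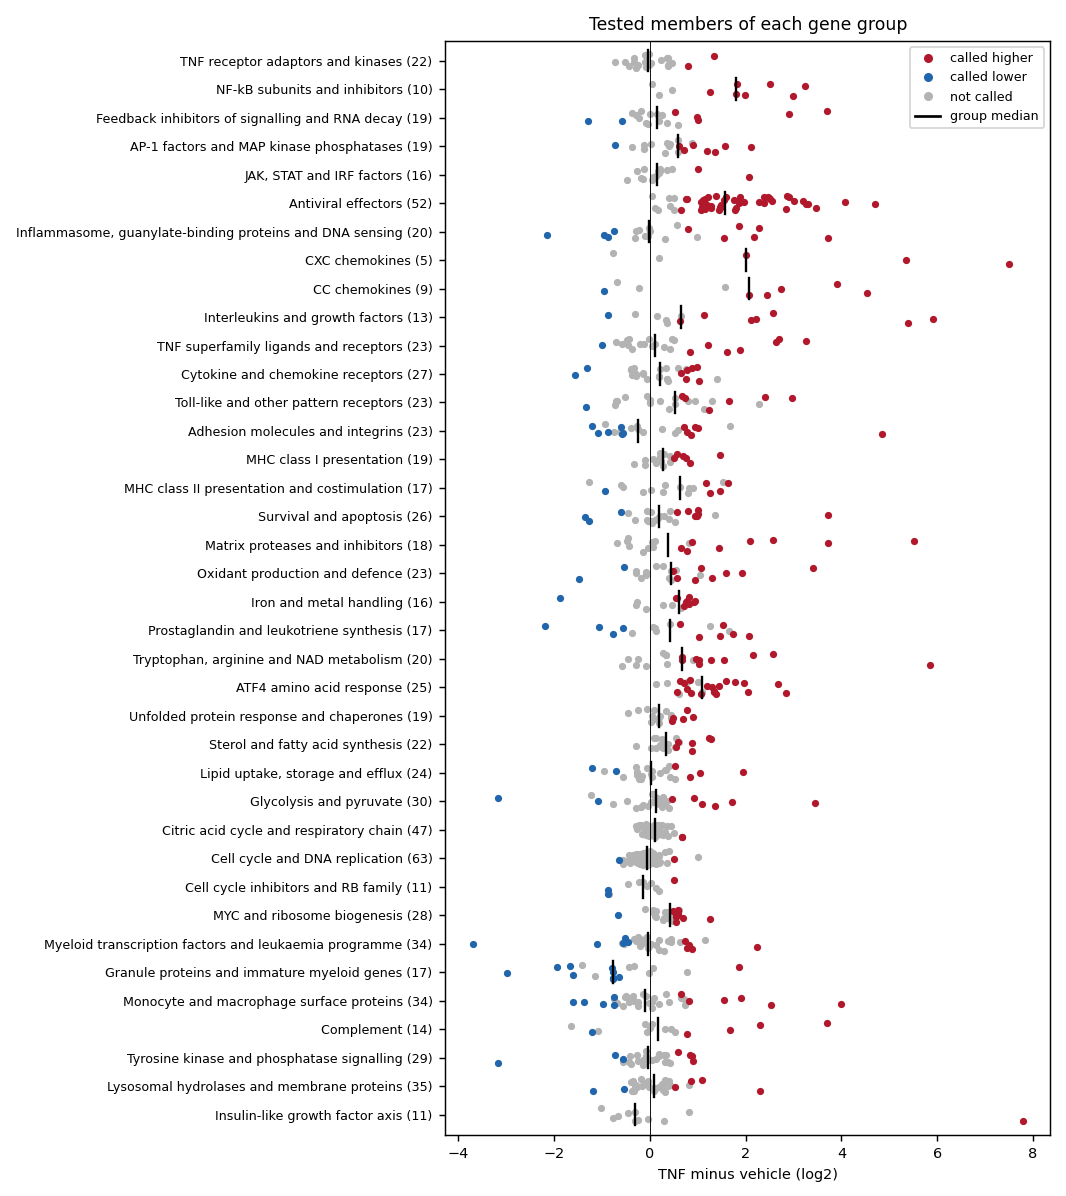
TNF minus vehicle log2 difference of each tested member of 38 gene groups, with the number tested in brackets and the group median as a bar. Red points rose, blue points fell and grey points did not pass. Antiviral effectors have 45 red points of 52, the granule group 9 blue points of 17, and the cell cycle group 1 of each among 63.

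Genes of survival, matrix breakdown and oxidant production held some of the largest rises. BCL2A1, a survival factor, was at 16.2, 13.4, 15.6, 11.6 and 11.9 with TNF and at 0.694 to 1.58 in vehicle (13.3-fold, 3.73 ± 0.29). The same group of 26 had 7 rises (26.9%, against 6.69% of all genes) and 3 falls (11.5%, against 4.62%). In it the survival factor BCL2 (-1.28 ± 0.18) and the death-promoting BIK (-1.36 ± 0.18) fell. Of the 2 other probe sets of BCL2, 1 did not share its direction. MMP9, gelatinase B, rose 13.2-fold (3.72 ± 0.27). Its group of matrix proteases and inhibitors had 8 rises among 18 (44.4%), which became 5 without TNF replicate 1 or replicate 2. In this group 3 members fell after quantile normalization or without centring. PLAUR, the urokinase receptor, rose 4.29-fold and ADAMDEC1, a metalloprotease of macrophages, by 5.52 ± 0.42. CYBB, the catalytic subunit of the phagocyte NADPH oxidase, was at 25.7, 15.2, 16.3, 41.0 and 33.8 with TNF and at 1.8 to 4.25 in vehicle (10.6-fold, adjusted p = 9.38e-14). NCF1, another subunit, rose by 1.92 ± 0.22 and the peroxidase PRDX1 by 1.29 ± 0.16. NCF4, a further oxidase subunit, fell (-0.55 ± 0.16), a call that was lost without vehicle replicate 1 or 2. Of 23 genes of oxidant production and defence 8 rose (34.8%, against 6.69% of all genes) and 2 fell (8.7%, against 4.62%). CAT, catalase, which breaks down hydrogen peroxide, was at 73.7, 75.4, 79.9, 157 and 143 with TNF and at 188 to 375 in vehicle (2.81-fold lower, -1.49 ± 0.16).

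Metabolic genes changed by group. Of 25 genes of tryptophan, arginine and NAD metabolism with a probe set 20 were tested, under the brightness limit that used TNF arrays too. Among the 20 tested 10 rose, against 6.69% of all genes tested, and none fell. Falls numbered 2 after quantile normalization or without centring. IL4I1, a secreted amino acid oxidase, was at 17.8, 20.4, 22.1, 24.4 and 22.0 with TNF and at 0.109 to 1.43 in vehicle (5.84 ± 0.46), and GCH1, the first enzyme of tetrahydrobiopterin synthesis, rose 4.45-fold. Iron and metal handling gave 9 rises (56.2%) and 1 fall (6.25%, near the 4.62% of all genes) among 16. The fall was the iron exporter SLC40A1 (-1.87 ± 0.28), whose other probe set did not share the direction, and 6 of the 9 rises were metallothioneins such as MT2A (0.95 ± 0.17), near-identical genes whose probe sets may share signal. Of 30 glycolysis and pyruvate genes 6 rose (20.0%, against 6.69% of all genes) and 2 fell (6.67%, near the 4.62% of all genes). The hexose transporter SLC2A6 rose 10.9-fold (3.44 ± 0.21) and hexokinase HK2 2.54-fold, while PDK4, which restrains pyruvate oxidation, fell (-3.17 ± 0.58). Eicosanoid genes gave 6 rises (35.3%) and 4 falls (23.5%) among 17, with the 5-lipoxygenase partner ALOX5AP higher (1.46 ± 0.20) and the leukotriene synthase LTC4S lower (-2.19 ± 0.26). Respiratory chain and citric acid cycle genes gave 2 rises among 47 (4.26%, against 6.69% of all genes) and no fall. After quantile normalization 5 rose and 6 fell, without centring 5 rose and 3 fell, and none rose without TNF replicate 5 or vehicle replicate 4, or 1 without TNF replicate 1, 3 or 4 or vehicle replicate 3 or 5. Cell cycle genes gave 1 rise, CDK4 (0.50 ± 0.14), and 1 fall, CDC25C (-0.64 ± 0.21), among 63 (1.59% each way, below the 6.69% and 4.62% of all genes). Falls there numbered 10 after quantile normalization and 8 without centring, and leaving out single arrays gave 0 to 2 rises and 0 to 2 falls. The other probe set of CDC25C did not share its direction. MYC was at -0.11 ± 0.15 (adjusted p = 0.726). Of 28 genes of MYC and ribosome biogenesis 9 rose (32.1%, against 6.69% of all genes) and 1 fell (3.57%, near the 4.62% of all genes). Leaving out single arrays gave 2 to 12 rises there, and none rose without the array set term.

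ATF4 target genes of the amino acid response rose in 19 of 25 members (76.0%, against 6.69% of all genes) and none fell, with a median of 1.09. CHAC1, which degrades glutathione, was at 22.0, 24.4, 26.0, 12.1 and 15.4 in TNF wells. In vehicle it was at 19.1 in replicate 1 and at 1.1 to 3.38 in the other wells, so the groups overlapped through that well (2.84 ± 0.47, adjusted p = 3.96e-05). The pseudokinase TRIB3 was at 64.0 to 126 with TNF, at 122 in vehicle replicate 1 and at 21.8 to 37.5 in the other vehicle wells (1.45 ± 0.28). The cystine transporter SLC7A11 (2.05 ± 0.39), SESN2 (1.39 ± 0.27) and the folate enzyme MTHFD2 (1.33 ± 0.25) were also highest among vehicle wells in replicate 1. Averaged over the 25 members, vehicle replicate 1 (5.49) was above every TNF array (5.09 to 5.4), and the other vehicle arrays were at 3.58 to 4.14. Without it 23 members rose, and in array set 1 alone, where it lies, 10 did. WARS1, a tryptophan tRNA synthetase that interferon also induces, and the sterol enzyme DHCR7 were high in the same well (74.6 and 19.6). Chaperones and other unfolded protein response genes gave 5 rises among 19 (26.3%). The 5 became 2 without TNF replicate 1 or 3 or vehicle replicate 3, 4 or 5, and 3 without TNF replicate 5 or vehicle replicate 6. After quantile normalization or without centring 1 member fell. Sterol and fatty acid synthesis genes gave 6 rises among 22 (27.3%), led by HMGCS1 (1.27 ± 0.20), and 10 after quantile normalization or without centring.

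A small part of the genes that rose or fell lay next to each other. When the 12374 genes with a known place were put in genome order, 12 runs of 3 or more neighbours rose together and 5 fell together. The runs held 40 genes, against 829 that rose, and 16 genes, against 572 that fell. How many such runs the call rates alone would give was not tested. On chromosome 10 the interferon-induced genes IFIT2, IFIT3, IFIT1 and IFIT5 rose by 1.49 to 3.3, on chromosome 12 OAS1, OAS3 and OAS2 by 1.89 to 3.01, and on chromosome 6 TNF, LTB and LST1 by 1.62 to 3.27. The granule genes AZU1, PRTN3, ELANE and CFD on chromosome 19 fell, with log2 differences of -1.6 to -0.65, and so did MS4A3, MS4A6A and MS4A4A on chromosome 11, at -2.99 to -1.19. These runs were found by their calls, and neighbours that are copies of each other can share probe signal.

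The same TNF step was compared in RA-treated cells, with RA plus TNF set against RA alone. There 946 genes (7.63%) rose and 564 (4.55%) fell. Of the 829 genes that rose without RA 532 also rose with it, which is 64.2% of the rises without RA and 56.2% of those with RA. Of the 572 falls 285 were shared, 49.8% and 50.5% of the 2 lists. Only 3 rises and 5 falls had the opposite call with RA. The difference between the TNF effects was called for 53 genes (0.428%), and 28 of them had changed with TNF alone.

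**Figure D5:**
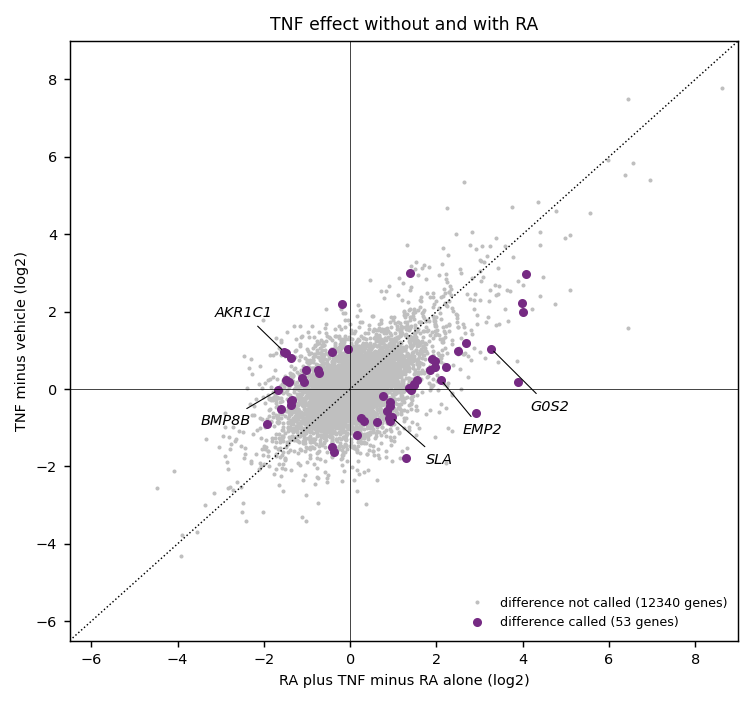
Each point is 1 of 12393 genes, with the log2 difference of RA plus TNF minus RA alone on the horizontal axis and of TNF minus vehicle on the vertical axis. Purple points are the 53 genes whose TNF effect was called different, and the dotted line marks equal effects. AKR1C1 lies at 0.96 without RA and -1.53 with it, and G0S2 at 1.04 and 3.27.

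AKR1C1, an aldo-keto reductase of steroids, was at 7.04, 15.2, 13.4, 11.3 and 11.4 with TNF alone, against 3.8 to 7.45 in vehicle. With RA plus TNF it was at 6.7 to 12.8, against 19.7 to 35.2 with RA alone. AKR1C1 rose with TNF without RA (0.96 ± 0.21) and fell with it (-1.53 ± 0.22), a difference of 2.49 ± 0.30 (adjusted p = 1.08e-05). The related AKR1C2, whose sequence is close enough for its probe sets to share signal, had the same pattern (0.93 and -1.48). G0S2, an inhibitor of lipid breakdown, rose with TNF in both settings, by 1.04 ± 0.22 without RA and 3.27 ± 0.23 with RA (difference -2.22 ± 0.32). The adaptor SLA (-0.73 and 0.96), the amino acid transporter subunit SLC7A7 (-0.83 and 0.92) and the receptor CD300LF (-0.74 and 0.90) fell without RA and rose with it. NFKBIA, CXCL8 and IL1B rose in both, by 2.98, 2.00 and 2.22 without RA and by 4.07, 4.01 and 3.99 with RA, and their differences also passed (adjusted p = 0.0275, 0.0374 and 0.00766). The antiviral group rose in 45 of 52 members without RA and in 35 with it, and whether the group's effects differed was not tested.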

How the data were processed

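RNA extracted with Trizol was hybridised to Affymetrix HG-U133 Plus 2 arrays, and signals came from GCOS, per the submitters' processing notes (version not given). The authors deposited these signals on a log2 scale, each relative to its array's median, since the median of every column is 0; how they were centred is not stated. Of 54675 probe sets, 41091 had 1 gene symbol in the platform annotation, 1801 several and 11721 none. Each of 19775 genes was represented by its brightest probe set (mean log2 value over 33 arrays), and the 12393 genes with a mean of at least 0.882 times the array median over the 21 arrays of the experiment were tested. The 21 arrays include those with TNF, so a gene could pass this limit through its level there. limma 3.58.1 in R 4.3.3 (lmFit, eBayes with intensity trend) was fitted to these 21 arrays with the array set as a term, with Benjamini-Hochberg adjustment and a threshold of 0.05, and the script was tested on simulated data. What the runs of record numbers stand for is not given in the labels. Folds of named genes are given where the vehicle mean was above the array median, while counts by fold include all called genes. Replicates were separate wells of one line, so p-values measure the spread between wells. Genes named were the largest changes, also among genes with a mean vehicle signal of at least 500 units. Gene group members were named by the smallest adjusted p or for going against their group. Others had the smallest adjusted p for the difference between array sets or with RA, and some, such as TNF, RELA and MYC, were named in every case. The members and gene lists were chosen with earlier results of these data known. A choice of probe set by linear mean was added as an alternative after results under both rules had been seen. Deviations of same-numbered TNF and vehicle wells from the means of their group and array set correlated at r from -0.1 to 0.03. With only 2 TNF arrays in set 2, their deviations mirror each other, so the check says little there. The wells were not treated as pairs, and these values do not show that they were unpaired. The number of arrays limits the precision.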

Additional observations from a re-analysis of the deposited data

Results flagged for a closer look

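Among 458 groups of TNF or vehicle values of named genes, 24 held an array far from the others by Dixon's criterion, and chance alone flags about 1 in 20 groups. All values are multiples of the array median. In TNF wells, replicate 2 stood out for EBI3 (11.8), NFE2L3 (6.78) and PDK4 (0.0422), replicate 3 for GBP2 (6.3), replicate 4 for RALY-AS1 (2.47) and KLF6 (11.8), and replicate 5 for PRDX1 (364) and EGR1 (19.9). In vehicle wells, replicate 1 stood out for ADAMDEC1 (0.0556), GPA33 (6.32), WARS1 (74.6), TRIB3 (122), DHCR7 (19.6) and BTG1 (65.3). Vehicle replicate 3, the array with the highest median signal, was the lowest for TNIP1 (11.1), LTA4H (32.3), HSPA5 (86.6), CPT1A (14.3), SLC2A6 (1.83), TREM2 (12.5) and TLR2 (16.6). Vehicle replicate 2 stood out for MSMO1 (59.9), replicate 4 for CCL4 (0.809) and replicate 5 for CGAS (8.13).

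EGR1, an immediate early transcription factor, was the 1 gene (0.00807% of those tested) whose TNF effect differed between array sets, by 2.38 ± 0.41 (limma adjusted p = 0.0254). It was at 57.0, 44.7 and 57.2 in TNF wells and 62.9, 121 and 74.3 in vehicle wells of set 1, and at 49.1 and 19.9 in TNF wells and 8.95, 12.6 and 7.41 in vehicle wells of set 2. Before adjustment 387 of 12393 genes had p under 0.05, fewer than the 1 in 20 that would pass if no gene differed between the sets.

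The TNF effect without RA minus that with RA was called for 53 genes by the interaction term, and is given for the 10 with the smallest adjusted p. It was 2.49 for AKR1C1, 2.41 for AKR1C2, 1.63 for BMP8B and 1.53 for DDX60L. It was -2.22 for G0S2, -1.86 for EMP2, -1.74 for SLC7A7, -1.69 for SLA, -1.64 for CD300LF and -1.33 for CEBPD.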

How the results depend on the processing

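Rises numbered 829, and 388 without the array set term and 396 in array set 1 alone. Falls numbered 572, and 1406 after quantile normalization, 1348 without centring, 341 with the mean of all probe sets, 260 without the set term, 249 in set 1 alone and 305 in set 2 alone. With RA, falls numbered 1177 after quantile normalization. Differences with RA numbered 186 after quantile normalization and 116 with 16 units added, and differences between sets 7 after quantile normalization. Leaving out each array gave 619 to 1027 rises and 435 to 741 falls, the most falls (741, with 666 rises) without vehicle replicate 3. With the replicate number as a block, 720 rose and 556 fell, 930 and 571 did so with RA, and 51 genes differed with RA. With the probe set of highest linear mean, chosen after seeing the data, 834 rose and 570 fell, IL1B was at 2.41, SLAMF8 at 5.59 and CD59 lost its call (0.55, adjusted p = 0.116). Of 218 called genes named, all 218 kept their call under quantile normalization, with 16 units added and without centring, 177 in set 2 alone, 168 with the mean of all probe sets, 166 without the set term and 159 in set 1 alone, and 194 did so without each of 11 arrays. Of the other 24, IL18 lost its call without TNF replicate 4 or 5 (-1.05 to -0.75 over all arrays left out), CDK4 without TNF replicate 5, LTA4H without TNF replicate 2, CD180 and CD300LF without any of 3 arrays each, HSPA5 without any of 6, CD59 of 7, BTG1 of 8 and CDC25C of 9. Signs turned for PLCG2 (0.28, mean of probe sets), TNFRSF1A (0.04, set 1) and EGR1 (-0.65, set 1). RELA was at -0.01 after quantile normalization and without centring, -0.05 without the set term, -0.34 in set 1, -0.03 with the block and -0.08 to 0.15 with single arrays left out. BMP8B was at 0.09 with the mean of probe sets and 0.08 in set 2 and -0.13 to 0.05 with single arrays left out, and CEBPD at -0.05 after quantile normalization, -0.02 without centring and -0.06 to 0.12 with single arrays left out. The cause of these shifts was not tested.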
